A study of Mus musculus with 4 samples.

Results

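The 10 genes described here encode the mTOR kinase (Mtor), the scaffold subunits of its complexes (Rptor and Rictor), the inhibitory subunit Akt1s1, the GTPase Rragc that brings the kinase to the lysosome, and substrates of the kinase: Eif4ebp1, Eif4ebp2, Rps6kb1, Rps6kb2 and Ulk1. They were found by the gene name, or the current symbol of the accession, that the array files give each probe. They have 31 of the 41174 probes on the array and are 10 of 27370 named features. All 10 genes were tested, among 17537, through 21 of their 31 probes. The other 10 probes were well above background on at most 1 of the 4 arrays, so they were not tested; each belongs to a gene with a brighter probe.

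The mTOR kinase works in a pair of complexes. With the scaffold raptor (Rptor) it forms mTORC1, which is recruited to lysosomes by Rag GTPases when amino acids are plentiful, phosphorylates the 4E-BP repressors and the S6 kinases to favour translation, and phosphorylates ULK1 to hold back autophagy. With rictor it forms mTORC2, which phosphorylates AKT. In the testis, mTORC1 activity is known to accompany the growth and differentiation of spermatogonia, and its restraint is known to help maintain the stem cells.

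The cells were germline stem cells, that is mouse spermatogonial stem cells in culture, from testis, all male and all carrying the alleles that the labels spell Roa-CreERT2 and CAG-CAT-3FlagNanos2-pA. In these alleles a recombinase that 4-hydroxytamoxifen activates, made by a knock-in, switches on a tagged copy of Nanos2, the RNA-binding protein of spermatogonial stem cells. The control group (2 arrays) took DMSO and the other group (2 arrays) took 4-hydroxytamoxifen, which some labels write as Tamoxifen, each for 48 hours. Both grew with GDNF (20 ng/ml), EGF (20 ng/ml) and FGF2 (10 ng/ml) on mitomycin-treated feeder fibroblasts that were removed before total RNA was taken. No group took the compound without the construct, so the comparison holds the compound, the recombinase and Nanos2 together. Neither the age of the animals behind the cells nor the number of cultures or lines is given in the labels, so p-values reflect no more than the spread of these arrays within a group, possibly a technical one.

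Signals are given in percent of the 75th percentile of their array, and differences as 4-hydroxytamoxifen minus DMSO on the log2 scale with its standard error in the limma fit (2 arrays per group). Between 62.1% and 65.9% of spots were well above background, and the 75th percentile lay between 706 and 746 intensity units. Nanos2 read 47.8 and 47.1 with DMSO and 128 and 151 with 4-hydroxytamoxifen, a difference of 1.55 ± 0.10 (limma adjusted p = 0.00086). The change between the groups was broad: of all 17537 genes, 69.5% were called at a limma adjusted p under 0.05, 40.3% as higher and 29.3% as lower, with a median difference of 0.11. The split depended on the scaling, with 5730 higher and 6663 lower by median scaling and 4826 higher and 4761 lower by spike-in scaling, against 7063 and 5132. The germ cell markers Ddx4, Dazl, Uchl1 and Dnd1 were well above background on all 4 arrays. Of 11 germ cell markers tested, 8 were lower and 0 higher with 4-hydroxytamoxifen by limma (0 higher at an unadjusted p under 0.05), and their summed signal went from 20395 and 20052 to 11892 and 12507. Uchl1 made up much of that sum, with 10669 and 10615 going to 6377 and 6740. Ddx4 (-0.17), Sall4 (-0.16) and Taf4b (-0.25) were not called (limma adjusted p = 0.12, 0.118 and 0.153). Fibroblast markers were higher for 24 of 25 genes (sum 24242 and 27613 to 47349 and 44771), macrophage, blood and endothelial markers for 10 of 14 (sum 1681 and 1867 to 3648 and 3743), and Sertoli and Leydig markers for 5 of 8 tested of 13 listed, with 2 lower (1 without DMSO replicate 1, without 4-hydroxytamoxifen replicate 1 or with no filter on dim probes). Lyz2 supplied most of the macrophage, blood and endothelial sum, with 1479 and 1678 going to 3271 and 3362. In that list Ptprc (0.01), Cd68 (0.11), Kdr (0.22) and Pecam1 (-0.47) were not called. The Leydig and Sertoli genes Amh, Gata4, Cyp11a1 and Hsd3b1 did not pass the filter on dim probes. The part of these other cells in any difference below was not tested, and in such bulk samples fewer cells of a type and less RNA per cell cannot be told apart.

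A probe is a single strand of 60 bases that reports only the piece of transcript it matches, so it does not tell apart forms that share that piece. Which forms of a gene hold the piece of a given probe was not tested. Of the 31 probes, 6 have coordinates that span more than their own length and so cross at least 1 intron, and report spliced RNA; each has at least 1 forward reading frame without a stop codon. They are shown because the differences of Rps6kb1 below turn on one of them and because they report the S6 kinase paralogues from spliced exons; none shares a run of 16 bases with a probe of another gene. All are in lower case, 5′ to 3′, with no base singled out.
Rptor A_51_P413031: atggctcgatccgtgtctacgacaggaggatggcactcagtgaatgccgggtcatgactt
Rictor A_52_P616473: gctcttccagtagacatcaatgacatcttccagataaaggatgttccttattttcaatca
Rps6kb1 A_52_P170486: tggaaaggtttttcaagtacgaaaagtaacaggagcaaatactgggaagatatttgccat
Rps6kb2 A_51_P293553: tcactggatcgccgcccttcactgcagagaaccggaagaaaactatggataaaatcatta
Rps6kb2 A_52_P182450: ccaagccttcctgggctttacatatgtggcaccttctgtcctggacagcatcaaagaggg
Rragc A_52_P202725: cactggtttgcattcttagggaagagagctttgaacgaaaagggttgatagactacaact
On mm9, the build of the files, they lie at Rptor chr11:119755652-119756246 (plus strand), Rictor chr15:6739576-6740566 (plus strand), Rps6kb1 chr11:86346290-86347534 (minus strand), Rps6kb2 chr19:4158669-4158839 (minus strand), Rps6kb2 chr19:4157548-4157694 (minus strand) and Rragc chr4:123607182-123612798 (plus strand). The other probes of the members lie on a single stretch of genome each.

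At the brightest probe of each gene, 3 of the 10 genes were higher with 4-hydroxytamoxifen (Rragc, Mtor and Rps6kb1), 3 were lower (Eif4ebp2, Akt1s1 and Rptor) and 4 were not called (Rictor, Eif4ebp1, Rps6kb2 and Ulk1). The share called, 6 of 10, is near the 69.5% of all genes; 40.3% of all genes were higher and 29.3% lower. Their median difference was -0.18, against 0.11 over all genes. The 2 groups lay apart, without overlap, for 9 of the 10 genes, and for 86.5% of all genes. No member reached a difference of 2-fold with a call, which 24.4% of all genes did.

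**Figure D1:**
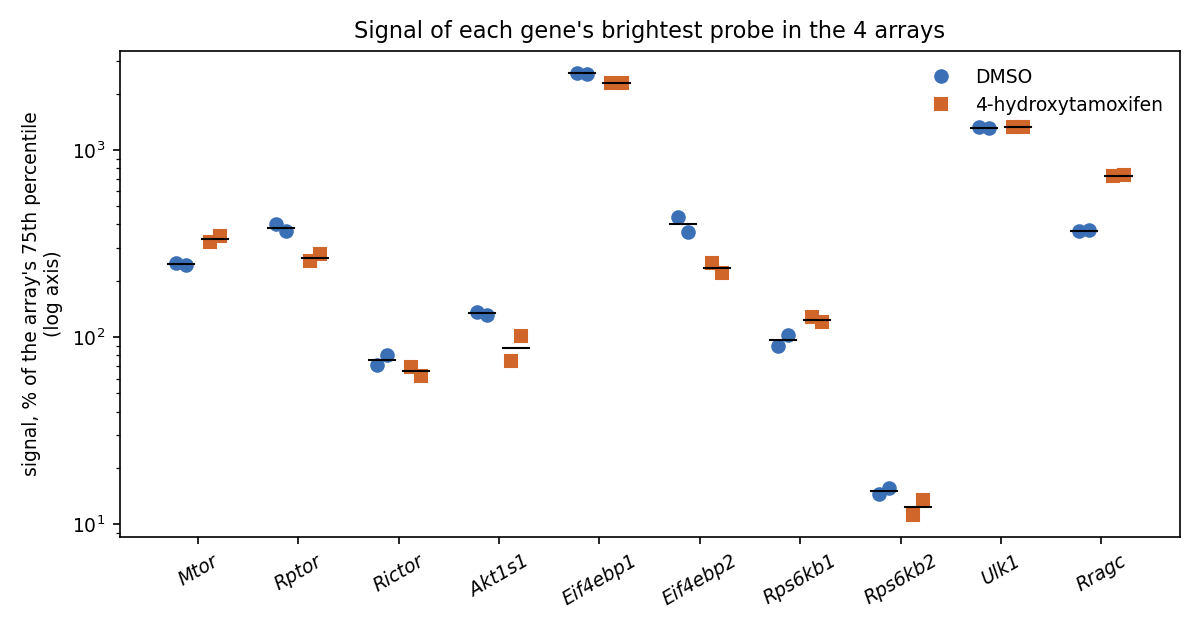
Signal of the brightest probe of each of the 10 genes in percent of the array's 75th percentile (log axis), with circles for the 2 DMSO arrays, squares for the 2 4-hydroxytamoxifen arrays and black bars for the mean of the log2 values. Rragc rose from 371 and 371 to 722 and 739, whereas Ulk1 is the gene whose groups overlap.

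Mtor, the kinase that both complexes share, read 250.2 and 243 with DMSO and 324 and 348 with 4-hydroxytamoxifen at its brightest probe, so that both treated arrays were above both controls. This difference was 0.44 ± 0.07, or 1.36-fold higher (limma adjusted p = 0.00644). The probe starts at base 8050 of the transcript NM_020009 and lies at chr4:147931250-147931309. A second probe gave the opposite: it read 150.1 and 137 with DMSO and 60.02 and 58.5 with 4-hydroxytamoxifen, a difference of -1.27 ± 0.08 or 2.42-fold lower (limma adjusted p over all probes = 0.000906). It lies at chr4:147829016-147829075, 102234 bases upstream, and starts at base 2166 of the separate transcript ENSMUST00000123566. Its sequence holds AATAAA, the letters of the common polyadenylation signal, which 4.78% of all probes on the array hold, and 4 of the 31 probes of these genes. With the mean of both probes Mtor was lower, at -0.41 (adjusted p = 0.00786), and with spike-in scaling the brightest probe was not called (0.30, adjusted p = 0.245). Its standard error was then 0.22, against 0.07 in the main fit. The array therefore gives no single direction for Mtor.

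Rptor encodes raptor, the scaffold that presents substrates to mTORC1. Its brightest probe, at chr11:119760596-119760655, read 399.9 and 369 with DMSO and 255 and 278 with 4-hydroxytamoxifen. Both treated arrays were below both controls, with a difference of -0.53 ± 0.08, or 1.45-fold lower (limma adjusted p = 0.00628). The intron-crossing probe gave a fall of the same direction, from 16.9 and 15.2 to 8.87 and 11.1 (-0.69 ± 0.14, limma adjusted p = 0.0133). The fall of Rptor was called in all 13 other settings of processing and replicates, between -0.71 and -0.47. The other 2 Rptor probes, both on Ensembl transcripts of their own, were not well above background on any array.

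Rictor, the scaffold of mTORC2, was not called at its brightest probe, which read 70.8 and 80.6 with DMSO and 69.4 and 62.3 with 4-hydroxytamoxifen (-0.20 ± 0.10, limma adjusted p = 0.156). The treated arrays were both the lower ones, but by little more than the controls differed from each other. Of its 8 probes, 4 were tested and the other 3 of these were lower. The intron-crossing probe read 6.997 and 7.19 with DMSO and 3.64 and 4.97 with 4-hydroxytamoxifen (-0.74 ± 0.17, limma adjusted p = 0.0194). A probe on the cDNA AK082586 was lower by 0.71 from a signal of only 3.78 and 4.08, near background, and that fall was not called with normexp background correction (-0.12, adjusted p = 0.187). The third, on AK029196, was well above background on the DMSO arrays only, which bounds its fall at no less than 1.12-fold. Its call was lost in 7 of 11 other settings. With the mean of the 4 tested probes Rictor was at -0.49 and called (limma adjusted p = 0.00609). That mean holds the AK029196 probe, which passed the filter through its DMSO arrays alone, and the AK082586 probe near background. Its call therefore rests partly on the filter and on dim signals. With median scaling the brightest probe was called lower (-0.38, limma adjusted p = 0.0258).

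Akt1s1 encodes PRAS40, a subunit that inhibits mTORC1 until AKT phosphorylates it. It has 1 probe, at chr7:52110152-52110211, which read 136 and 131 with DMSO and 74.97 and 102 with 4-hydroxytamoxifen. The treated arrays lay below the controls but apart from each other, and the difference was -0.62 ± 0.17 or 1.53-fold lower (limma adjusted p = 0.0304). Without DMSO replicate 1 it was not called (-0.59, adjusted p = 0.064), nor with no filter on dim probes (adjusted p = 0.0834); over the 13 other settings its adjusted p ran from 0.00133 to 0.0834.

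Rragc, one of the Rag GTPases that recruit mTORC1 to the lysosome, had the largest called difference of the 10 genes at their brightest probes; dimmer probes of Mtor and Rps6kb1 differed by more. Its brightest probe, at chr4:123613729-123613788, read 371 and 371 with DMSO and 722 and 739 with 4-hydroxytamoxifen, so that the groups were far apart and the arrays of a group close together. The rise was 0.98 ± 0.06 or 1.97-fold (limma adjusted p = 0.000773). The intron-crossing probe rose by nearly as much, from 56.3 and 49.2 to 106 and 91.7 (0.91 ± 0.12, limma adjusted p = 0.00385). The rise was called in all 13 other settings, between 0.79 and 0.99. The 3 genes, of 13984 candidates well above background on all 4 arrays, whose centred log2 values lay nearest over the 4 arrays were Galnt10 (Euclidean distance 0.0092, difference 0.97), Snx16 (0.0215, 0.97) and Renbp (0.0288, 0.97); with 4 arrays in 2 groups, this likeness is mostly an equal difference between the groups.

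The 4E-BP proteins bind the cap-binding protein eIF4E and block translation until mTORC1 phosphorylates them. Eif4ebp2 read 437 and 367 with DMSO and 248 and 221 with 4-hydroxytamoxifen at its only probe (chr10:60895379-60895438), with both treated arrays well below the controls. It was lower by 0.78 ± 0.12 or 1.71-fold (limma adjusted p = 0.00611), a call that held in all 13 other settings (-0.96 to -0.65). Eif4ebp1, by contrast, was not called at its brightest probe, which read 2583 and 2546 with DMSO and 2286 and 2288 with 4-hydroxytamoxifen (-0.17 ± 0.06, limma adjusted p = 0.0676). Its second probe starts at base 917 of the transcript, against 739 for the first, and was much dimmer, at 31.1 and 24.02 with DMSO and 15.1 and 13.1 with 4-hydroxytamoxifen. That probe was lower by 0.96 ± 0.16 (limma adjusted p = 0.00768). It has the lowest content of G and C of the 31 probes, 21.7%, and shares a run of at least 16 bases with 1 probe of another gene, as 10.9% of all probes do. With the mean of both probes Eif4ebp1 was called lower (-0.56, adjusted p = 0.00891), as it was with median scaling (-0.35, adjusted p = 0.00912). Within an array, the log2 ratio of Eif4ebp1 to Eif4ebp2 at their brightest probes was higher with 4-hydroxytamoxifen by 0.61, in both treated arrays. Its exact two-sided permutation p was 0.333, the lowest that 2 arrays against 2 allow. At the dimmer Eif4ebp1 probe, which fell by 0.96 against 0.78 for Eif4ebp2, the ratio went the other way. At the brightest probes the ratio of Rptor to Rictor changed by -0.33 and that of Rps6kb1 to Rps6kb2 by 0.65. Each had an exact two-sided permutation p of 0.333 as well. These changes also depended on the probe. The intron-crossing probes of Rptor (-0.69) and Rictor (-0.74) fell nearly alike. With the intron-crossing Rps6kb1 probe (-1.11) against the brighter Rps6kb2 probe (-0.29), the ratio went the other way.

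Rps6kb1 encodes S6 kinase 1, which phosphorylates ribosomal protein S6 and translation factors. Its brightest probe, at chr11:86314935-86314994, read 89.9 and 103 with DMSO and 127 and 119.8 with 4-hydroxytamoxifen, a small rise of 0.36 ± 0.09 (limma adjusted p = 0.0284). This call was lost in 7 of 13 other settings. Among them were leaving out DMSO replicate 1 (0.27, adjusted p = 0.0881), 4-hydroxytamoxifen replicate 1 (0.32, adjusted p = 0.125) or 4-hydroxytamoxifen replicate 2 (0.41, adjusted p = 0.078), and a replicate block (adjusted p = 0.0592). A probe further along the same transcript, NM_001114334, from base 5097, read 65.2 and 70.97 with DMSO and 99.2 and 94.8 with 4-hydroxytamoxifen and was higher by 0.51 ± 0.08 (limma adjusted p = 0.00645). Spike-in scaling was the setting that ended its call (0.36, adjusted p = 0.163). The intron-crossing probe printed above, which starts at base 406 of NM_028259, went the other way. It read 21.9 and 20.7 with DMSO and 10.5 and 9.27 with 4-hydroxytamoxifen, lower by 1.11 ± 0.09 or 2.16-fold (limma adjusted p = 0.00141), a call that held in all 12 other settings. A probe further along that transcript, from base 3204, was well above background on 1 DMSO array and on neither treated array, so it was not tested. With the mean of the 3 tested probes Rps6kb1 was at -0.079 and not called (adjusted p = 0.414).

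Its paralogue Rps6kb2, S6 kinase 2, was not called. Both of its tested probes cross introns. The brighter one read 14.5 and 15.7 with DMSO and 11.2 and 13.5 with 4-hydroxytamoxifen (-0.29 ± 0.12, limma adjusted p = 0.0882), and the other 12.2 and 12.5 with DMSO and 12.1 and 11.4 with 4-hydroxytamoxifen (-0.07 ± 0.07, limma adjusted p = 0.424). In both, the treated arrays were the lower ones by a margin close to the spread within the groups. Without 4-hydroxytamoxifen replicate 2 the brighter probe was called lower (-0.42, adjusted p = 0.0448), as it was with quantile normalization (-0.42, adjusted p = 0.0335) and median scaling (-0.47, adjusted p = 0.0217).

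Ulk1, the kinase that starts autophagy and that mTORC1 inhibits, was level at its brightest probe. It read 1326 and 1308 with DMSO and 1328 and 1321 with 4-hydroxytamoxifen, with overlapping groups and a difference of 0.01 ± 0.06 (limma adjusted p = 0.913). A second probe, which starts at base 4857 of the same transcript against 5129, read 173 and 169 with DMSO and 130.0 and 137 with 4-hydroxytamoxifen. It was lower by 0.36 ± 0.07 (limma adjusted p = 0.0125), without passing when DMSO replicate 1 (adjusted p = 0.0574) or 4-hydroxytamoxifen replicate 1 (adjusted p = 0.0619) was left out.

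**Figure D2:**
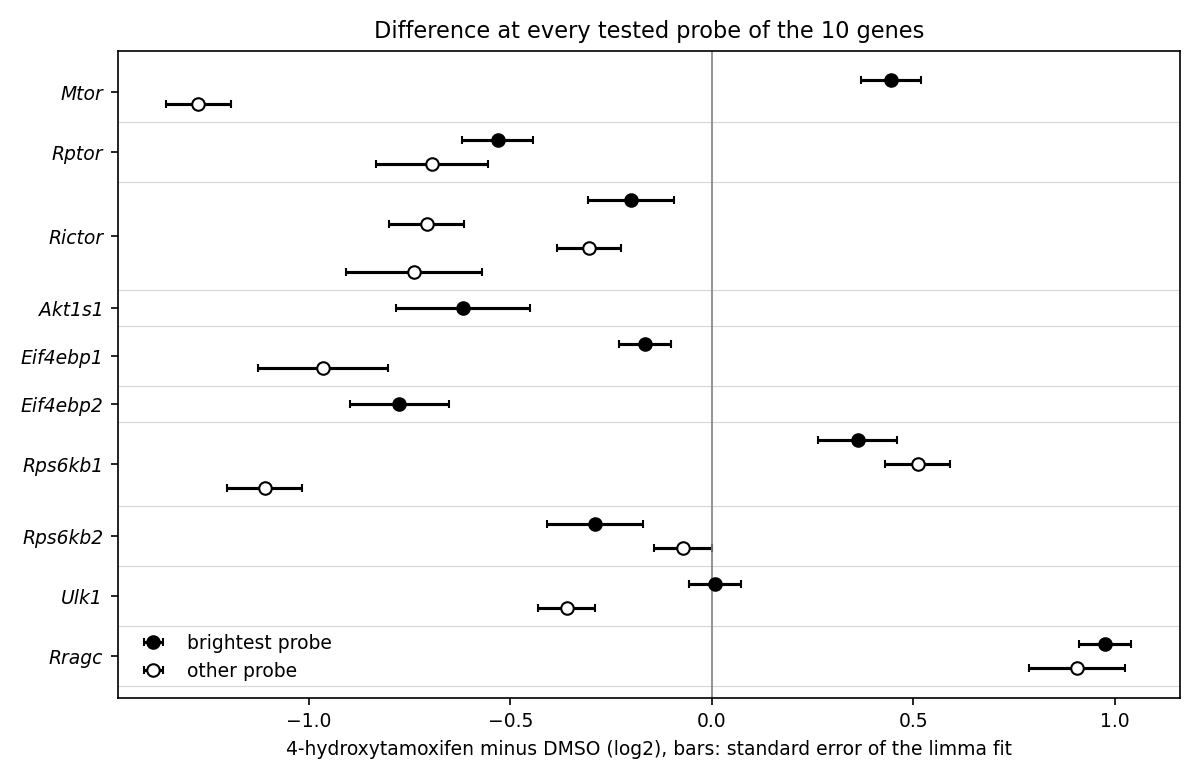
Difference between the groups (log2, 4-hydroxytamoxifen minus DMSO) at each of the 21 tested probes of the 10 genes, with the brightest probe of a gene filled, the others open, and bars for the standard error of the limma fit over all probes. Mtor and Rps6kb1 have called probes on both sides of 0, while both Rragc probes lie at 0.91 and 0.98.

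Over all 21 tested probes, 5 were called higher and 11 lower, or 76.2% in all, against 67.2% of the 26393 probes tested on the array (36.2% higher and 31.1% lower). The 11 include the Rictor probe on AK029196, which passed the filter through its DMSO arrays alone. Whether the probes of a gene changed unequally was tested with limma's diffSplice, which sets each probe against the other probes of its gene. Of the 8 members with at least 2 tested probes, 4 were called unequal, and 39.0% of the 6319 such genes on the array were. The spread between probes was largest for Mtor, at 1.72 (limma adjusted p = 0.000128), and for Rps6kb1, at 1.62 (limma adjusted p = 0.000115). Eif4ebp1 followed with 0.80 (limma adjusted p = 0.0186) and Ulk1 with 0.37 (limma adjusted p = 0.0181). The call of Mtor held in all 12 other settings and that of Rps6kb1 in 11, the exception being no filter on dim probes (adjusted p = 0.338). Eif4ebp1 lost it in 4 settings, among them without DMSO replicate 1 (adjusted p = 0.063) and without 4-hydroxytamoxifen replicate 1 (0.0838) or 2 (0.126). Ulk1 lost it in 7, each single array left out among them (adjusted p from 0.0699 to 0.138). The probes of Rptor, Rictor, Rps6kb2 and Rragc were not called unequal (limma adjusted p = 0.522, 0.075, 0.28 and 0.749). Rictor became so without 4-hydroxytamoxifen replicate 2 (adjusted p = 0.0362), with quantile normalization (0.021) and with no filter on dim probes (0.0124).

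Position along the transcript moved with the differences over the whole array. Of 4924 RefSeq transcripts with at least 2 tested probes, the probe nearest the 3′ end had a higher difference than the probe nearest the 5′ end in 74.7%, with a median gap of 0.21 on the log2 scale. Among the members it did in 5 of 7, with a median gap of 0.15: Rictor (0.54), Ulk1 (0.37), Rptor (0.16), Rps6kb1 within NM_001114334 (0.15) and Rragc (0.07), but not Eif4ebp1 (-0.80) or Rps6kb2 (-0.22). In Mtor and Rps6kb1, whose opposed probes are on different listed transcripts and so are not in this count, the lower probe is the upstream one as well. The brightest probe also had the highest difference in 6 of 8 members, as in 58.1% of 6320 genes. The part of position or brightness in the members' values was not tested.

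**Figure D3:**
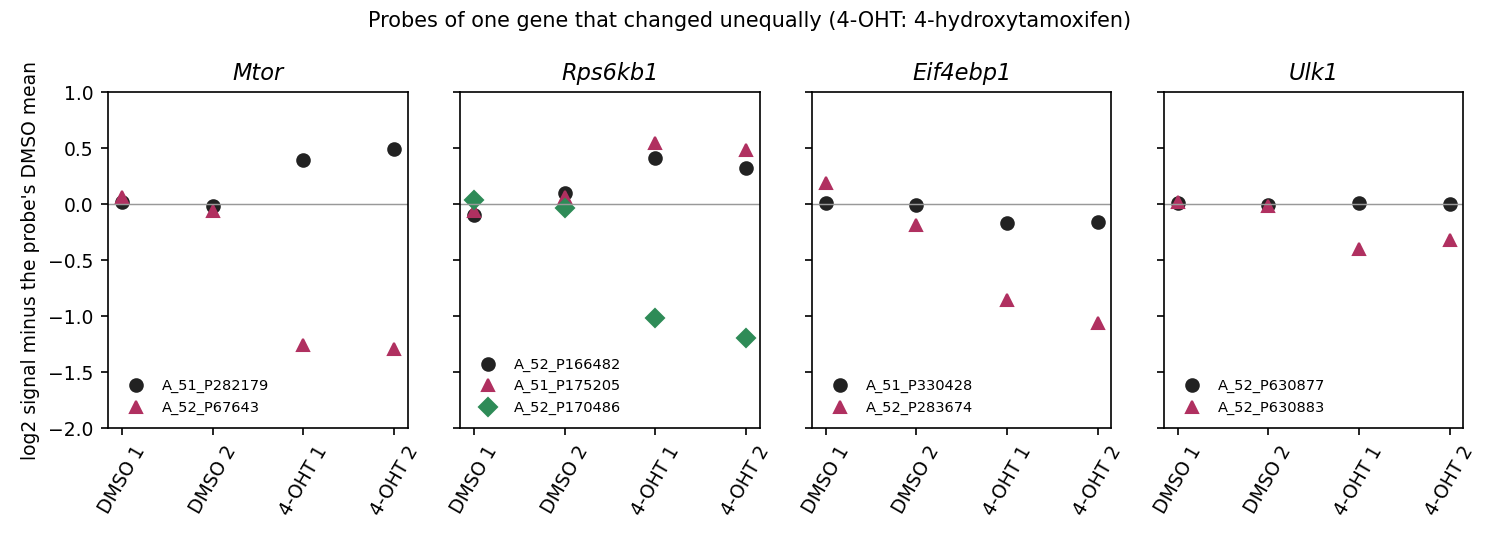
Log2 signal minus the probe's own DMSO mean in each of the 4 arrays, for the 4 genes called unequal; each marker is a probe, and 4-OHT stands for 4-hydroxytamoxifen. In both treated arrays the Mtor probes part by 1.72 on average and those of Rps6kb1 by up to 1.62, wider than for Eif4ebp1 (0.80) and Ulk1 (0.37).

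The rest of the pathway was taken from 6 lists and is read against the background of 40.3% of genes higher and 29.3% lower and a median of 0.11. The remaining complex subunits and assembly factors had 0 of 8 genes higher and 3 lower, with a median of -0.16. By limma at an unadjusted p under 0.05, 0 were higher. The lower count was 1 without either DMSO replicate or with no filter on dim probes, and 5 with median scaling; without 4-hydroxytamoxifen replicate 2, 1 was higher. The largest fall was that of Prr5, or protor-1, a subunit of mTORC2, which read 118 and 119 with DMSO and 33.7 and 38.4 with 4-hydroxytamoxifen, lower by 1.71 ± 0.09 or 3.28-fold (limma adjusted p = 0.000608). Tti1, part of the co-chaperone that assembles kinases of this family, was lower by 0.41 ± 0.11 (limma adjusted p = 0.0281), without passing when either DMSO replicate (adjusted p = 0.0718 and 0.0564) or 4-hydroxytamoxifen replicate 1 (0.0689) was left out. The subunit common to both complexes, Mlst8, differed by -0.12 ± 0.06 and was not called.

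The list of Rag GTPases and the Ragulator, the lysosomal anchor of the Rag proteins, also held Slc38a9, Rheb and Rhebl1. It went both ways, with 3 of 11 genes higher and 5 lower, Rhebl1 among the lower, and a median of -0.10. Without DMSO replicate 2, or without either 4-hydroxytamoxifen replicate, 3 were lower, as with no filter on dim probes. With spike-in scaling 1 was higher and 4 were lower. Rragd, the closest relative of Rragc and like it a partner of RagA or RagB, read 1589 and 1609 with DMSO and 176 and 179 with 4-hydroxytamoxifen. It was lower by 3.17 ± 0.06 or 9.02-fold (limma adjusted p = 0.000366), against the rise of Rragc of 0.98 in the same arrays. Its other 2 probes gave -3.43 and -1.27, both called. Rragb was lower by 0.87 ± 0.14 from a signal of 12.05 and 12.1. Among the Ragulator subunits, Lamtor3 rose by 0.70 ± 0.06 and Lamtor4 by 0.58 ± 0.07 (limma adjusted p = 0.00136 and 0.00245); Lamtor4 was not called with spike-in scaling (0.44, adjusted p = 0.0772).

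Inhibitors that act upstream of mTORC1 had 6 of 13 genes higher and 3 lower, with a median of 0.11. Without 4-hydroxytamoxifen replicate 1, 0 were lower by limma (2 at an unadjusted p under 0.05), and with no filter on dim probes 1. Ddit4l, a relative of the stress-induced inhibitor Ddit4, rose by 1.30 ± 0.08 and Tsc1, the partner of the GTPase-activating protein Tsc2, by 0.89 ± 0.07 (limma adjusted p = 0.000787 and 0.00115). All 3 Ddit4l probes and all 4 Tsc1 probes were higher. Ddit4 itself read 10771 and 6757 with DMSO and 4169 and 4033 with 4-hydroxytamoxifen: the 2 controls were far apart, and it was lower by 1.06 ± 0.24 (limma adjusted p = 0.0195). That call did not hold without 4-hydroxytamoxifen replicate 1 (adjusted p = 0.085) or 2 (0.0923). Castor1, the arginine sensor, was lower by 0.49 ± 0.12 (limma adjusted p = 0.0224), a call lost without DMSO replicate 2 (adjusted p = 0.0569) or 4-hydroxytamoxifen replicate 1 (0.0546).

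The list of other factors of cap-dependent translation, which also held the elongation genes Eef2 and Eef2k, had 6 of 17 genes higher and 5 lower. Its median was 0.01. Without DMSO replicate 2 or 4-hydroxytamoxifen replicate 2, 3 were higher, as with no filter on dim probes. With median scaling 3 were higher and 6 lower, and with spike-in scaling 2 and 5. Eif4g3, a scaffold of the cap complex, rose by 1.24 ± 0.08 (limma adjusted p = 0.000899) at its brightest probe, and its second probe by 1.07. Eif4b, a substrate of the S6 kinases that helps unwind mRNA, was higher at its brightest probe by 0.97 ± 0.07 (limma adjusted p = 0.000973), while its other probes gave 0.52 and 0.03, the last not called. Eef2k, the kinase that slows elongation, fell by 1.56 ± 0.11 (limma adjusted p = 0.00102), with other probes at -0.83 and 0.14, the last not called. Eif4e, the cap-binding protein that the 4E-BP proteins hold, read 1195 and 1116 with DMSO and 669 and 659 with 4-hydroxytamoxifen, lower by 0.80 ± 0.07 (limma adjusted p = 0.00136), but its second probe was level at -0.0013 and not called. With all probes of a gene averaged, Eif4b (0.50), Eef2k (-0.75) and Eif4e (-0.40) kept their direction and call, by smaller differences.

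Autophagy genes other than Ulk1 had 7 of 13 genes higher and 2 lower, with a median of 0.26. Without DMSO replicate 1 or 4-hydroxytamoxifen replicate 2, 1 was lower. With spike-in scaling 2 were higher, with median scaling 4 were lower, and with normexp correction or no filter on dim probes 1 was lower. Atg14, a subunit of the lipid kinase complex that ULK1 activates, rose by 0.86 ± 0.06 and Sqstm1, the cargo receptor p62, by 0.65 ± 0.07 (limma adjusted p = 0.00105 and 0.00243). Becn1, of the same lipid kinase complex, was lower by 0.62 ± 0.07 (limma adjusted p = 0.00213). Tfeb, a transcription factor that mTORC1 keeps out of the nucleus, was lower by 0.41 ± 0.13 (limma adjusted p = 0.0445) from a signal of 6.28 and 5.55. It did not pass without DMSO replicate 1 (adjusted p = 0.122), without 4-hydroxytamoxifen replicate 2 (0.145) or with normexp correction (0.0819). The list of PI3K, AKT and mTORC2 substrates had 8 of 15 genes higher and 4 lower, with a median of 0.53, out of 16 listed. With spike-in scaling 4 were higher and 4 lower. Grb10, an adaptor that restrains insulin signalling and that mTORC1 phosphorylates, rose by 1.44 ± 0.11, and the insulin receptor substrate Irs1 by 1.33 ± 0.11 (limma adjusted p = 0.00104 and 0.00124). Foxo1, a transcription factor that AKT inhibits and that spermatogonial stem cells need, fell by 1.31 ± 0.06 (limma adjusted p = 0.000548). In the same arrays fibroblast markers had a median of 0.94 and germ cell markers, Foxo1 among them, of -0.86.

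**Figure D4:**
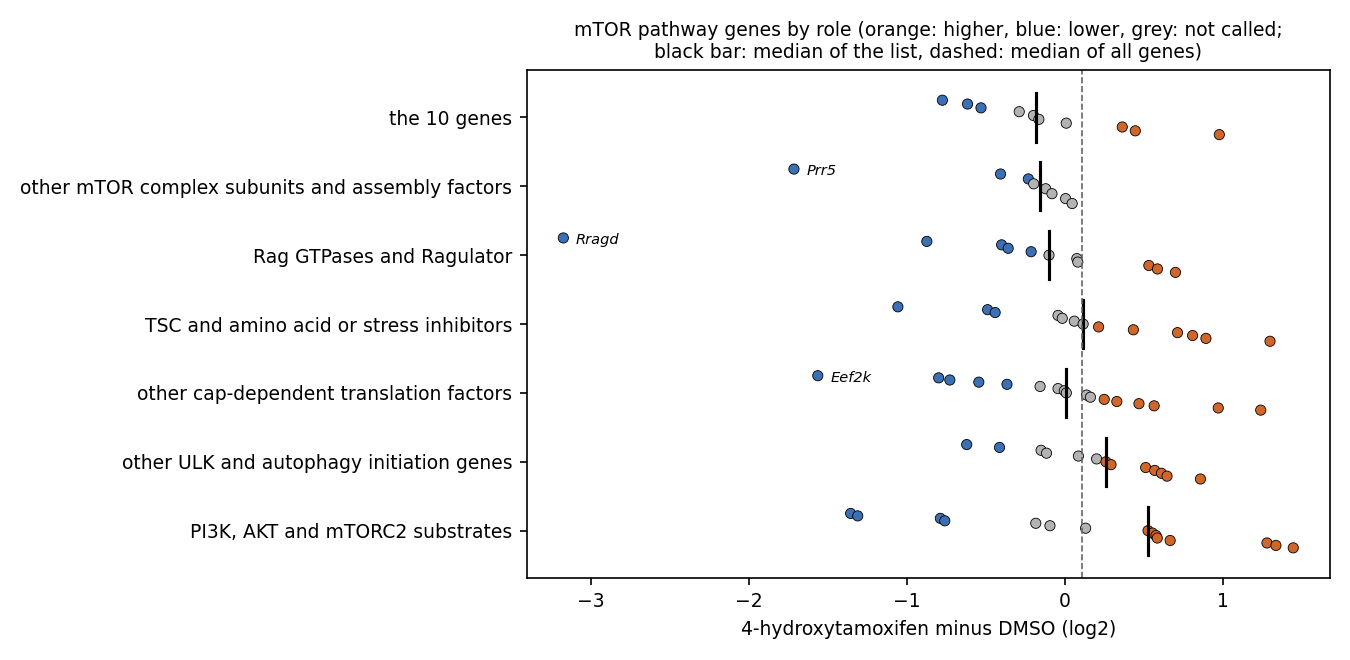
Difference between the groups (log2, 4-hydroxytamoxifen minus DMSO) of each tested gene, by role; a point is a gene at its brightest probe, coloured by its call, the bar is the list's median and the dashed line the median of all genes (0.11). Rragd at -3.17 and Prr5 at -1.71 lie farthest to the left, and the 10 genes described here lie between -0.78 and 0.98.

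Because Rragc and Rragd moved in opposite directions, the 250 bases before their listed starts are shown, from RefSeq's GRCm38.p6 table, which holds 8 of the 10 members. Both lie on the plus strand, Rragc at chr4:123917183-123917432 and Rragd at chr4:32982748-32982997. Capitals mark CACGTG, the E-box letters that MYC and TFEB family factors are known to bind.
Rragc: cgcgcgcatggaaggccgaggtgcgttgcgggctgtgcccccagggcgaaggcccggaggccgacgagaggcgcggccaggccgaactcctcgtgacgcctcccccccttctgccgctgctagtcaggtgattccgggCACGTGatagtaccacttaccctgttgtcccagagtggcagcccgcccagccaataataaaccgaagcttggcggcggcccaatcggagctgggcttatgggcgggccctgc
Rragd: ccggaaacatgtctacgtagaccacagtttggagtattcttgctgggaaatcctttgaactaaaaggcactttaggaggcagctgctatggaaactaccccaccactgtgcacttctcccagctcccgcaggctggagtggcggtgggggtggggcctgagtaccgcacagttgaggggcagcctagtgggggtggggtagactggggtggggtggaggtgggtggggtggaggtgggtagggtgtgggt
CACGTG reads the same on both strands. It occurs once in the Rragc stretch, not in that of Rragd or of the other 7 members in the table, and in 6.02% of all 32851 promoter stretches of that length. The ETS letters CCGGAAG, searched on both strands, occur in those of Mtor, Akt1s1 and Eif4ebp2 and in 6.91% of all. CCAAT, searched on both strands, occurs 4 times in Mtor, 2 times in Rragc and 1 time in Rictor, and in 33.8% of all. None of these motifs contains another, and a match describes the sequence only. Sites outside the 250 bases were not searched, so a missing match holds for this stretch alone. The part of any motif in the differences was not tested.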

How the data were processed

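Total RNA, labelled with Cy3, was measured on 4 Agilent 1-colour arrays, 2 per group, on 1 slide in 1 scan. The deposited scanner files hold linear intensity values per spot, which Agilent Feature Extraction 10.7.3.1 background-subtracted and detrended per the file headers; the submitters' processing notes name version 9.5. A deposited table of log2 values was found to be the log2 of that signal, shifted by an array constant (0.275 to 0.362; column medians 6.16, 6.18, 6.35 and 6.35) and served as an alternative. Deposited flags (score 0 or 1) mark outlier spots (60 to 71 per array, left out) and spots well above background; 0 spots were saturated.

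The log2 of each processed signal, less the 75th percentile of its array, was averaged per probe. Probes well above background on at least 2 arrays were kept, and the probe with the highest mean stood for its gene. Accessions and symbols were matched through RefSeq's GRCm38.p6 table (33636 of 41174 probes; 7538 kept the name in the file). The comparison used limma's lmFit and eBayes (version 3.58.1, R 4.3.3; group as the only term) over all genes, or over all probes for values of single probes, with Benjamini-Hochberg adjustment and a threshold of 0.05. The fit was also run on simulated data in which few probes changed, unlike in these arrays. That run therefore does not bear on the scaling or on the share of genes called here. With 2 arrays against 2, an exact two-sided permutation p cannot go below 0.333, so p-values borrow limma's spread from other genes, and the number of arrays limits the precision. Arrays of one group differed by 3.62 (DMSO) and 3.43 (4-hydroxytamoxifen) times the noise between spots of 245 repeated probes, so they are not 1 deposited array repeated; they were counted as the labels give them, and this does not show that they came from separate RNA. Arrays with the same number were not treated as pairs, since the labels do not state that the numbers pair them. Their deviations did not correlate (-0.05), which by itself cannot show that they are unpaired.

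The members and the lists were chosen with earlier results of these data known. Named were all members with their probes, Nanos2, up to 2 called rises and 2 called falls per pathway list, and the 3 genes most like the member with the largest called difference. The values of 1 gene that this rule names are not reported here. Mlst8, Rhebl1, the cell type markers given with values, the tests of unequal probes and the comparisons by position and brightness were chosen after values were seen. Where a gene is well above background in 1 group only, the fold is a bound: the bright group's mean is set against the dim group's, in which no array counts as dimmer than its faintest probe well above background. Alternatives were normexp (offset 50), scaling by quantiles, the median or the spike-ins, the deposited log2 table, other filters, the mean of a gene's probes, a replicate block and leaving out each array.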

Additional observations from a re-analysis of the deposited data

How the results depend on the processing

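The counts of members called, 3 higher and 3 lower, depended on the scaling and on the probe taken. With spike-in scaling, which used 7 spike-in probes, 1 was higher. That setting widened the standard error, for Mtor to 0.22 from 0.07, so a lost call there is partly one of precision. With all probes of a gene averaged 1 was higher and 6 lower, and with median scaling 6 were lower. The 6 by averaging include Rictor, whose mean holds a probe that passed the filter through its DMSO arrays alone. Leaving out single arrays gave 2 to 3 higher and 2 to 4 lower. With the mean of all probes, Mtor turned to -0.41 and Rps6kb1 to -0.079, since their probes went opposite ways. Rptor, Eif4ebp2 and Rragc kept direction and call in all 13 alternatives. Over all genes 9587 (spike-in scaling) to 12555 (normexp) were called, against 12195; median scaling gave 5730 higher and 6663 lower, against 7063 and 5132, and moved the median of all genes from 0.11 to -0.07. Spike-in scaling moved it to -0.04. The replicate block was run although the labels do not state that the numbers pair the arrays (correlation of deviations -0.05). It called 11061 genes and ended the calls of Rps6kb1, of the dimmest tested Rictor probe and of unequal Ulk1 probes, and no other named one. Probes near background, such as those of Rictor, are limited by signal.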
